A study of Rattus norvegicus with 6 samples.

Results

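The probes described here are the piRNA probes that gave a signal on every array and whose signal in diabetic rat islets lay wholly below that in control islets. They were found among 39727 piRNA probes, of which 7721 were well above background on all 6 arrays. On each array the median log2 processed signal of those 7721 probes was set to 0, and the value relative to it is called the level. A probe was kept when its highest level in Goto-Kakizaki (GK) islets was at least 0.5 below its lowest level in Wistar islets, and the distance between these values is called the gap. In total 46 of the 7721 probes (0.596%) met the rule. The same margin in the opposite direction was also met by 46 probes (0.596%). The members were thus chosen by the GK and Wistar levels themselves, so these levels and their differences are descriptions, carry no test and support nothing further.

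Each strain was represented by 3 islet total RNA samples, taken at an age of 3 months and extracted individually, and each sample was hybridised to its own array after Cy3 labelling of RNA 3' ends with T4 RNA ligase. Wistar is the control strain, and GK is a non-obese strain with type 2 diabetes that was bred from Wistar stock. The preparations were whole pancreatic islets, so the signal sums over all cell types in them, and fewer cells of a type cannot be told apart from less RNA per cell. The arrays Wistar 1, Wistar 2, Wistar 3 and GK 1 share a scan identifier in the file headers and are called slide 1, and GK 2 and GK 3 share another and are called slide 2. The labels do not say whether each RNA came from a single rat.

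PIWI-interacting RNAs (piRNAs) are small RNAs, longer than microRNAs, that bind PIWI proteins and guide them to matching transcripts. They are best known from the germline, where this pathway silences transposons by cutting their RNA and by directing chromatin marks to their genomic copies. In mammals many piRNAs are cut from long single-stranded precursors transcribed from genomic clusters, and they are far more abundant in germ cells than in most somatic tissues. Each probe is named by the sequence accession of the piRNA it was designed against. The sequences, genomic locations and targets of the members were not used here, and no role is given to any of them.

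Between 9699 and 14373 piRNA probes were well above background on an array. The median signal over all piRNA probes was 7.87 on GK 2 and between 2.42 and 3.41 on the other 5 arrays. Across 11357 probes the correlation between arrays ran from 0.873 to 0.969, and no spot was saturated. None of the 34 listed markers of islet, acinar, duct, endothelial and leukocyte cells and of the piRNA pathway was matched to a probe by RefSeq accession or miRNA name, so the tissue label could not be checked on these arrays.

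Over the 46 members the log2 difference in level, GK minus Wistar, ran from -4.74 to -0.69 with a median of -1.67. This is 3.18-fold lower in GK at the median, with extremes of 1.62-fold and 26.6-fold. Over all 7721 probes the median difference was -0.01. Among the members 16 had a difference below -2, 22 lay between -2 and -1, and 8 were above -1. For the members the median SD of the 3 arrays was 0.43 within Wistar and 0.30 within GK, and over all 7721 probes it was 0.30 within either strain. Members therefore varied more than the usual probe among the Wistar samples, and the arrays behind that are named below.

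In a limma fit of all 11406 tested probes, scaled to the 75th percentile of the probes detected on all arrays, 1 probe (0.00877%) was lower in GK at an adjusted p of 0.05, and it was not a member. None of the 45 members that could be fitted passed, and the smallest adjusted p in limma was 0.054, for DQ765092. At an unadjusted p under 0.05, 44 of the 45 were lower, against 2.81% of all tested probes, a count that follows from choosing members on this contrast. The methods' t-test on the authors' matrix, after Benjamini-Hochberg adjustment, also called 0 members. With the slide as a block, the strain term compared GK 1 alone with the Wistar arrays, since slide 2 holds no Wistar array. No calls from that fit are given. For 2 of the 45, DQ747341 and DQ751874, the fit held only Wistar 3 on the Wistar side, which is assumed to vary like the other arrays, so their not passing says nothing about them. The member DQ763254 was not fitted because its spots on all 3 Wistar arrays carried an outlier flag. The limma scale moves every unflagged difference by 0.16 toward higher GK values. The authors' deposited table lists 35 of the 46 members as lower in GK, with folds from 2.16 to 29.3, and none as higher. It draws on the same arrays and lists as lower 60 of the 7721 always detected probes and 1.19% of 18419 probes.

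The widest gap belonged to DQ747341. Its levels were 2.96, 3.87 and 3.39 on Wistar 1, 2 and 3 and 0.56, 0.45 and 0.45 on GK 1, 2 and 3. The GK arrays were nearly level with each other, and the difference of -2.92 was 7.59-fold. In processed signal this was 542, 862 and 653 in Wistar against 93, 73.5 and 63.7 in GK. The spots on Wistar 1 and Wistar 2 were flagged by the extraction software as not uniform, and the limma fit, which left them out, set Wistar 3 alone against the GK arrays.

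DQ765092 and DQ737664 shared this shape, with similar values on all GK arrays. For DQ765092 the levels were 1.26, 2.15 and 1.73 in Wistar and -0.97, -1.22 and -1.03 in GK, 6.92-fold lower, with no flagged spot. Its GK signals of 32.3, 23.2 and 22.9 lay below the median always detected probe of those arrays, and its Wistar signals above it. For DQ737664 the levels were 2.91, 3.05 and 3.30 in Wistar and 1.17, 1.12 and 1.14 in GK, a range of 0.05 that was among the 3 smallest within GK. It was 3.85-fold lower, and 1 Wistar spot was flagged as not uniform. DQ749105 had levels of 3.01, 3.58 and 3.48 in Wistar and 1.66, 1.09 and 1.28 in GK. DQ744958 had levels of 1.55, 1.47 and 2.09 in Wistar and 0.36, 0.06 and 0.18 in GK. Both had gaps above 1, and neither had a flagged spot.

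DQ728575, DQ745550 and DQ700399 went from above the median of the always detected probes in Wistar to near or below it in GK. DQ728575 had levels of 2.28, 3.84 and 3.17 in Wistar and 0.10, -0.67 and -0.81 in GK, 11.8-fold lower on average. DQ745550 had 1.92, 2.89 and 2.23 in Wistar and 0.16, -0.72 and -0.81 in GK. DQ700399 had 2.12, 2.94 and 2.79 in Wistar and 0.55, -0.29 and -0.89 in GK, with its Wistar 2 spot flagged as not uniform. In all of them Wistar 2 was the highest array, Wistar 1 the lowest Wistar array and GK 1 the highest GK array.

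The most extreme fold changes came from probes with large steps inside a strain. DQ757713 had the largest difference, -4.74, or 26.6-fold. Its levels were 3.18, 6.16 and 4.10 in Wistar and 1.79, -1.54 and -1.02 in GK, and the processed signals were 631, 4209 and 1064 against 219, 18.5 and 23. Wistar 2 thus exceeded Wistar 1 by 2.98, and GK 1 exceeded the mean of GK 2 and GK 3 by 3.07. DQ763254, 18.9-fold lower, had levels of 4.49, 7.03 and 5.07 in Wistar and 2.14, 0.77 and 0.96 in GK. Its spots on all Wistar arrays were flagged as not uniform, and none of its GK spots was. These were the 2 members on which Wistar 2 stood at least 1 above both other Wistar arrays, a pattern seen in 0.207% of the 7721 probes.

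DQ751874 showed the widest spread within GK. Its levels were 5.47, 6.34 and 5.87 in Wistar, 4.31 on GK 1, and 0.62 and 1.08 on GK 2 and GK 3. GK 1 differed from the Wistar mean by -1.58, and the mean of GK 2 and GK 3 differed from it by -5.04. DQ609412 had 3.15, 4.02 and 3.69 in Wistar, 2.35 on GK 1, and -0.63 and -0.01 on GK 2 and GK 3. In both, GK 1 lay nearer to the Wistar arrays than to the other GK arrays. For DQ609412, with all arrays in the fit, the limma difference was -2.89 with an SE of 0.71 and an adjusted p of 0.357. For DQ751874 the fit had left out the flagged spots on Wistar 1 and Wistar 2, so no limma value is given.

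The same step was present at smaller size in other members. DQ760954 had 3.85, 4.64 and 4.35 in Wistar, 2.78 on GK 1, and 0.58 and 0.72 on GK 2 and GK 3. DQ757406 had 3.97, 5.35 and 4.67 in Wistar, 2.54 on GK 1, and 0.60 and 0.76 on GK 2 and GK 3. DQ756757 had 3.34, 3.67 and 4.20 in Wistar, 2.02 on GK 1, and 0.38 and 0.39 on GK 2 and GK 3. On these probes GK 2 and GK 3 lay close together, and GK 1 lay between them and the Wistar arrays. DQ736962 followed with 4.08, 5.14 and 5.01 in Wistar, 2.97 on GK 1, and 1.40 and 1.87 on GK 2 and GK 3. Leaving out every spot flagged for itself or its background changed the DQ757406 difference from -3.36 to -3.97. That of DQ760954 went from -2.92 to -3.13 and that of DQ736962 from -2.66 to -2.46, and DQ756757 stayed at -2.81.

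In 11 of the 46 members (23.9%) GK 1 lay at least 1 above the mean of GK 2 and GK 3, against 5.92% of the 7721 probes. The median of this step was 0.34 over the members and -0.02 over all 7721 probes. Of the 11 members with a step of at least 1, 9 lay in rows 400 to 532 of the array. Those rows held 23 of the 46 members (50%) and 24.4% of the 7721 probes. The part of array position in this step was not tested. GK 1 was the highest GK array in 33 members (71.7%), compared with 38% of all 7721 probes, and GK 2 was the lowest in 33 (71.7%), compared with 36.7%. Since GK 1 shares slide 1 with every Wistar array and GK 2 and GK 3 form slide 2, the high place of GK 1 moves with the slides, and the part of the slide in it was not tested. GK 3, on the same slide as GK 2, was the lowest in 9 members (19.6%, compared with 23.4% of all 7721 probes). GK 1 was the lowest in 4 (8.7%, compared with 39.9%). The part of the slide in this low place was not tested either. Within slide 1 GK 1 was below the Wistar mean by a median of -1.47 (from -3.39 to -0.54), and across slides GK 2 and GK 3 by a median of -1.84. GK 1 alone met the 0.5 margin in 1.97% of the 7721 probes and GK 2 with GK 3 in 7.36%.

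In some members GK 1 was below the mean of the other GK arrays. DQ757171 had levels of -1.83, -1.51 and -1.27 on GK 1, 2 and 3, against 0.03, -0.39 and -0.61 in Wistar. DQ754744 had -1.92, -1.25 and -2.14 in GK, against -0.58, -0.48 and 0.20 in Wistar. DQ610882 had -1.21 on GK 1 and was highest within GK on GK 2, at -0.99, against -0.11, 1.24 and 1.10 in Wistar. For these the GK 1 difference from the Wistar mean, -1.51, -1.63 and -1.95, lay further from 0 than the -1.07, -1.40 and -1.74 of GK 2 and GK 3. DQ760787 (1.93, 1.46 and 2.65 in GK against 3.24, 3.43 and 3.98 in Wistar) was limited by GK 3 instead.

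The Wistar arrays were also ordered in a way that the rule did not ask for. Wistar 1 was the lowest Wistar array in 32 of 46 members (69.6%), compared with 30.1% of all 7721 probes. Wistar 2 was the highest in 22 (47.8%, compared with 22.3%) and Wistar 3 in 19 (41.3%, compared with 34.2%). Wistar 1, which set the lower Wistar bound in most members, was the highest Wistar array in 5 of them (10.9%) and in 43.5% of all 7721 probes. In the 46 upward probes the order was turned, with Wistar 1 the highest in 65.2% and GK 1 the lowest GK array in 73.9%.

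In 5 members (10.9%, compared with 2.82% of the 7721) the Wistar 3 sample stood at least 1 above both other Wistar samples. DQ614419 was the extreme case, at 1.55, 2.37 and 6.51 in Wistar and 0.50, 0.90 and 0.62 in GK. The Wistar 3 signal was 5680, whereas the other 5 arrays lay between 72 and 304. Its difference of -2.81 became -1.29 without Wistar 3, so most of its 6.99-fold value came from that array. DQ623541 had 1.70, 2.33 and 4.42 in Wistar and 1.18, 0.74 and 1.20 in GK, and DQ623602 had 0.87, 1.60 and 3.25 in Wistar and 0.36, -0.12 and 0.21 in GK. Without Wistar 3 their differences of -1.78 and -1.76 became -0.98 and -1.09.

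DQ739950 and DQ737370 were the other members with a high Wistar 3 value. DQ739950 had 2.13, 2.00 and 3.48 in Wistar and 1.47, 0.16 and 0.95 in GK. DQ737370 had 0.70, 0.88 and 2.05 in Wistar and -0.52, -0.82 and -0.09 in GK. Even their lowest Wistar values stayed above all GK values, as the rule requires.

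In 13 members there was an always detected probe with the next or previous accession number. None of these 14 neighbours was itself a member. In GK 8 of the 14 were lower and 6 higher, with a median difference of -0.15, from -1.81 to 1.55, and 51.2% of all 7721 probes were lower. A neighbour of each of DQ623541 and DQ623602 had the same shape, with a high Wistar 3 value. DQ623542, next to DQ623541, had 1.84, 2.52 and 4.65 in Wistar and 1.28, 0.59 and 1.71 in GK, and missed membership through GK 3. DQ623601, next to DQ623602, had 0.65, 1.38 and 3.29 in Wistar and 0.49, -0.36 and 0.20 in GK, and missed it through Wistar 1. These neighbours and the members were measured on the same arrays, and sequence overlap between them was not examined here.

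DQ622865 and DQ622867, whose numbers differ by 2, were the only members within 5 of each other. DQ622865 had -0.18, -0.32 and 0.81 in Wistar and -1.02, -0.98 and -0.85 in GK, and DQ622867 had -0.03, -0.20 and 0.81 in Wistar and -0.79, -1.37 and -1.13 in GK. DQ622864, one number before, had -0.13, -0.13 and 0.71 in Wistar and -0.80, -0.82 and -0.57 in GK, with a gap of 0.44 that misses the margin. On these 3 probes Wistar 3 was the highest array. DQ622868, the next number after DQ622867, did not share this, at -0.58, -0.54 and -0.88 in Wistar and -0.24, -0.40 and -0.37 in GK, where Wistar 3 was the lowest and GK the higher strain. By contrast DQ623540, the other neighbour of DQ623541, went the other way, at 9.43, 9.20 and 6.74 in Wistar and 9.59, 10.05 and 10.39 in GK.

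Most members gave more signal than the median always detected probe. Signal also depends on the probe, so ranks between probes are ranks of signal and not of piRNA abundance. The mean level over all arrays put 34 of 46 above the median, at a median percentile of 73.8 (from 15.7 to 97.9), whereas the upward probes had a median percentile of 49.7. By the Wistar mean alone the median percentile of the members was 81.5, and by the GK mean 60.4. In GK the mean level of 27 members was above 0, and in Wistar that of 40. Accessions starting with DQ7 made up 35 of the 46 (76.1%), 60.8% of the 7721 and 54.3% of the upward probes.

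DQ744365 had the highest signal of the members, at the 97.9th percentile of always detected probes. Its processed signals were 12559, 12437 and 14161 in Wistar and 5940, 3773 and 4140 in GK, with levels of 7.50, 7.72 and 7.83 against 6.55, 6.13 and 6.47. The groups were tight and 2.46-fold apart. With normexp, a model-based background correction followed here by quantile normalization, its difference was -1.23 against -1.30. DQ742314 came next by signal, with 4.52, 4.41 and 4.75 in Wistar and 3.88, 3.62 and 3.90 in GK, 1.7-fold lower. DQ617765 had 4.13, 4.29 and 4.01 in Wistar and 3.39, 2.86 and 3.20 in GK, and DQ730511 had 2.85, 3.82 and 3.54 in Wistar and 1.85, 1.25 and 1.56 in GK.

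Among the dimmest members DQ622421 had -0.81, -0.86 and -0.86 in Wistar and -1.66, -1.93 and -1.75 in GK. Its signals were 39.7, 32.4 and 34.1 in Wistar and 20.1, 14.1 and 13.9 in GK. The groups lay clearly apart at 1.91-fold, and with normexp the difference shrank from -0.93 to -0.25, which was the smallest over all members. DQ742108 had -0.59, -0.08 and -0.56 in Wistar and -1.64, -1.72 and -1.67 in GK, and went from -1.27 to -0.53 with normexp. DQ766199 had -1.01, -0.63 and -0.21 in Wistar and -1.82, -1.62 and -1.93 in GK, and went from -1.17 to -0.41. In all of these low-signal members the difference was under 0.5 of its size once normexp and quantile normalization were applied. With quantile normalization alone it was larger instead, at -1.26 for DQ622421, -1.54 for DQ742108 and -1.42 for DQ766199.

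In 6 members all arrays of each strain lay within a range of 0.5. They were DQ737664, DQ744365, DQ622421, DQ627642, DQ732250 and DQ742314. DQ627642 had 2.13, 2.22 and 2.23 in Wistar and 1.48, 1.56 and 1.25 in GK, and DQ732250 had 1.95, 2.01 and 1.76 in Wistar and 1.20, 1.19 and 1.25 in GK. These were small but even differences, of 1.7-fold for DQ627642 and 1.62-fold for DQ732250. DQ758291 was even in Wistar only, at 1.43, 1.46 and 1.49, and had 0.92, 0.01 and 0.66 in GK.

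Membership ended without a break in the values. The 5 members with the smallest gaps were DQ732250, DQ752335, DQ742314, DQ758291 and DQ623602, the last with a gap of 0.503. DQ752335 had 0.16, -0.05 and 0.81 in Wistar and -0.55, -1.01 and -1.09 in GK. The 5 probes that missed by least were DQ727721, DQ753113, DQ753579, DQ765723 and DQ752609, with gaps of 0.49 for the first and 0.48 for the last. DQ753113 had levels of 9.21, 9.07 and 9.48 in Wistar and 8.58, 7.59 and 7.83 in GK, 2.38-fold lower in GK. DQ753579 had 1.87, 2.87 and 2.69 in Wistar and 1.39, 0.43 and 0.71 in GK. Without any margin, 821 of the 7721 probes (10.6%) had GK wholly below Wistar and 581 (7.52%) GK wholly above.

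The other 12 members fall outside the rule for named probes and are named to account for the whole set, after their values were seen. They had differences between -2.06 and -0.92 and gaps between 0.51 and 0.92, and include the pair DQ622865 and DQ622867 and the probes DQ739950 and DQ737370 given above. DQ731543 was the largest of them, with 1.60, 2.51 and 2.24 in Wistar and 0.68, -0.35 and -0.16 in GK. DQ743309 had 3.05, 3.28 and 3.24 in Wistar and 2.39, 1.03 and 1.60 in GK, and DQ732499 had 2.25, 2.80 and 2.72 in Wistar and 1.63, 0.57 and 0.57 in GK. Both belong to the members with GK 1 well above the other GK arrays. DQ737865, DQ759822, DQ731053, DQ728393 and DQ627543 complete the set, with fold values of 2.94, 2.03, 2.02, 1.92 and 1.9.

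The place of a probe on the array was not used in choosing members, and the members were not spread over it as other probes were. The array has 532 rows and 85 columns of spots, with the same probe at the same place on each array. Rows 400 to 532 held 23 of 46 members (50%) and 24.4% of the 7721 probes. Of the 15 members with the widest gaps, 14 (93.3%) lay there and the other, DQ760954, lay in the row just before, 399. All 15 fell between rows 399 and 519 and columns 34 and 78. The remaining 31 members were spread more evenly, with 9 (29%) in rows 400 to 532. The median difference of the members there was -2.66, against -1.27 in rows 1 to 133, -1.11 in rows 134 to 266 and -1.35 in rows 267 to 399.

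Rows 400 to 532 also held many probes of the opposite kind, with 20 of the 46 upward probes (43.5%). The median difference over all always detected probes was 0.14 in these rows and -0.08, -0.05 and -0.03 in the other 3 blocks of rows. Probes with GK wholly below Wistar were fewer there, at 5.99% against 10.4% to 13.5%, and probes with GK wholly above were more frequent, at 15.2% against 3.99% to 5.55%. The direction of the members in these rows was fixed by the rule, and the other probes there were on balance slightly high. Why the widest gaps fell in these rows was not tested. Among 34 always detected non-member spots within 2 rows and 1 column of the 15 widest-gap members, the median difference was 0.07 and 14 were lower in GK. The 15 members had a median of -2.83, which their choice made low, so this contrast is no test of position. On GK 1 the median local background was 22 around the 15 members and 19.5 around all 7721 probes, and on each of the other arrays these medians differed by at most 1 pixel unit.

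Spot quality differed as well. The extraction software flagged a spot as not uniform in 7 of the 46 members (15.2%), compared with 38 of the 7721 probes (0.492%). The 7 were among the 15 members with the widest gaps, and all 11 flagged spots were on Wistar arrays, with 3 on Wistar 1, 6 on Wistar 2 and 2 on Wistar 3. Over all 7721 probes the flags were divided, 21 on Wistar and 30 on GK arrays, and among the upward probes there was 1, on a GK array. The flagged members were DQ747341, DQ763254, DQ737664, DQ700399, DQ757406, DQ751874 and DQ736962. A separate flag, for local background that is an outlier, was set in 10 of the 46 members (21.7%), on 7 Wistar and 5 GK spots, compared with 10.2% of the 7721 probes and 21.7% of the upward probes. The part of spot position, spot shape and local background in the low GK values was not tested. Without the 7 flagged members the median difference was -1.52 over 39 members, and without rows 400 to 532 it was -1.21 over 23 members.

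All 46 members stayed lower in GK, on the mean of the arrays, under each of the other scalings tried and under normexp. Normexp gave a median difference of -1.19, from -3.56 to -0.25, and 19 of the 46 still met the 0.5 margin. Its offset by itself shrinks differences at low signal. With quantile normalization, which equalises the distributions of the arrays, 34 did so, at a median of -1.62. The direction of the 46 was fixed by their choice and is no sign of stability.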

How the data were processed

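The data were 6 one-colour arrays. Per the labels' protocols, total RNA was labelled with Cy3 by RNA ligase, and per the file headers the scans were quantified in Agilent Feature Extraction 11.0.1.1. The deposited scanner files hold spot intensity values from which the software had subtracted background, with no scaling from array to array. The authors' deposited matrix holds log2 values for 18419 probes, with a normalization not given in the sources used here. The authors' deposited table gives a fold ratio and an unadjusted p-value from an unpaired t-test, per the file header, for probes at a fold of at least 2 and a p of at most 0.05.

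Members were found by the rule given above, flagged spots included. The fit across all probes used limma 3.58.1 in R 4.3.3 on the log2 of the deposited signal. From this signal the array's own 75th percentile (probes detected on all 6 arrays) was taken. Spots flagged as not uniform or as population outliers were dropped, and spots with only a background flag were kept. The filter asked for detection on 3 or more arrays, with strain as the only term and Benjamini-Hochberg adjustment. The fit was also run on simulated data with independent noise, no slide effect and shifts larger than most member differences. That run checks the code and not its behaviour on these arrays. Normexp used an offset of 50 and was followed by quantile normalization. Precision is limited by having 3 arrays a strain, and p-values measure the spread between these samples only.

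Named members were the 15 widest and 5 narrowest gaps, the 10 brightest and 5 dimmest, the 5 extremes of GK 1 on each side, the 3 extremes of each strain's range, adjacent accessions, limma calls and the 5 probes that missed by least. Members, lists and rules were chosen with earlier results of these data known. Probe sequences and locations were not used here.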

Additional observations from a re-analysis of the deposited data

How the results depend on the processing

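The 46 members depended on the settings of the rule. Scaling to the 75th percentile gave 29 when taken from probes that every array detected and 93 when taken from the whole array, and normexp gave 19. A margin of 0 gave 821 and of 1 gave 16, detection on at least 3 arrays gave 86, and slide 1 alone gave 152. Leaving out a Wistar replicate gave 121 (Wistar 1), 81 (Wistar 2) and 127 (Wistar 3) probes. Leaving out a GK replicate gave 565 (GK 1), 63 (GK 2) and 59 (GK 3). Each time fewer arrays must be separated and detected, and without GK 1 each strain also lies on its own slide. Of the 46, between 43 and 46 met the rule with a replicate left out, which their choice fixed apart from the recomputed medians. No scaling, quantile normalization, the authors' matrix and dropping spots with any spot or background flag stayed within 1.5 times of 46. The median difference of -1.67 was -1.19 with normexp and -1.21 without rows 400 to 532, and leaving out a replicate gave -1.85 to -1.34. The alternatives without rows 400 to 532 (23 members) and without spots flagged as not uniform were chosen after seeing the data. Over single members 550 of 641 values moved by less than the SD within strains, 91 by more, and none changed sign. The constant sign follows largely from how members were chosen. For these results the cause was not tested.

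The limma calls over all probes, 5 at an adjusted p of 0.05, also moved. They were 14 with the percentile over all probes, 0 with quantile normalization, normexp or no filter on dim probes, 2 with the authors' matrix or with probes detected on all arrays, and 1 with the methods' t-test. The labels do not pair the samples, deviations of same-numbered arrays correlated at -0.03, 0.04 and 0.04, and the replicate block gave 0. With the slide as a block the strain term rests on GK 1 alone, so no count is given. Leaving out a replicate gave 0 to 21 (21 without GK 1, which leaves each strain on its own slide, and 0 without any other array). At an unadjusted p under 0.05 limma counted 1232 probes in the fit as designed, 1000 with quantile normalization and 1282 with normexp. It counted 2510 with no filter, 1271 with the replicate block and 597 to 1305 without an array other than GK 1. With the rule's own scaling 7 probes passed and DQ765092 was the member among them. It also passed among probes detected on all arrays, and with DQ728575 and DQ745550 under the percentile over all probes. DQ609412 and DQ760954 passed without GK 1. The percentile over all probes moved every member difference toward lower GK values, with a median of -1.99 against -1.67. At an unadjusted p under 0.05 in limma, 1099 of 1266 probes were then lower in GK, against 320 of 1232 in the fit as designed.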
